A study of Mus musculus with 12 samples.

Results

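The respiratory chain subunits were followed here as a group of 80 nuclear genes in white adipose tissue of male mice. A gene was a member when its symbol began with Nduf followed by a, b, c, s or v (complex I), was Sdha, Sdhb, Sdhc or Sdhd (complex II), or began with Uqcr (complex III), Cox4 to Cox8 (complex IV) or Atp5 (complex V). Cox8b, Cox7a1 and the assembly factors whose symbols begin with Ndufaf were left out. The rule uses gene symbols only. The 80 members, out of 19937 named genes on the array, were 36 of complex I, 4 of complex II, 8 of complex III, 15 of complex IV and 17 of complex V. Complexes were assigned by symbol prefix, so Ndufa4, now regarded as a subunit of complex IV, was counted with complex I. The complex I members include 6 genes of core subunits.

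RNA of 12 samples was hybridised to Affymetrix whole-transcript arrays, 1 array per sample. The mice were wild type (WT) or carried a knockout of Ahnak (KO), which encodes a very large scaffold protein, and were 18 weeks old. Their feed for 12 weeks was either a high fat diet (HFD) or regular chow, the former made up of 20% protein, 20% carbohydrate and 60% fat. Genotype and diet gave 4 groups (WT chow, KO chow, WT HFD, KO HFD) of 3 arrays each. The labels do not name the fat depot, the strain or the part of Ahnak that was deleted, and do not say that each array came from a separate animal. All p-values therefore measure the spread between these arrays, which may be technical.

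The respiratory chain sits in the inner mitochondrial membrane. Complex I takes electrons from NADH and complex II takes them from succinate, and both hand them to ubiquinone. Complex III passes them to cytochrome c and complex IV passes them to oxygen. Complexes I, III and IV pump protons, and complex V, the ATP synthase, makes ATP from the proton gradient. Most subunits are encoded in the nucleus, and a few core subunits of complexes I, III, IV and V come from mitochondrial DNA. In white fat the chain oxidises fuel in adipocytes, and fat tissue also holds macrophages and other cells with mitochondria of their own. In whole tissue, fewer cells of a type and less RNA per cell cannot be told apart.

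Values are log2 levels as the authors deposited them, and a difference of 1 is a doubling. A level cannot be set against that of another gene on these arrays, because probe sets differ in how brightly they bind. Array medians over all rows lay between 5.78 and 5.92. Arrays of 1 group correlated at r = 0.985 to 0.996 over the rows that stood for the 19937 genes. Ahnak itself did not overlap between genotypes and was lower in KO, at 9.27 to 9.42 against 9.94 to 10.08 on chow and 9.40 to 9.58 against 9.68 to 10.27 on HFD. Its difference passed the test on HFD (adjusted p = 0.0207) and not on chow (adjusted p = 0.379). The adipocyte genes Adipoq (12.45 to 13.33), Plin1 (12.24 to 13.07) and Fabp4 (13.03 to 13.34) were bright on all 12 arrays. The library of WT on HFD replicate 2 stood apart for the members, with the lowest of the 12 values for 62 of 80 genes. Lowest values were not counted over all genes, and the lowest correlation (r = 0.985) was also between WT HFD arrays.

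The 80 members moved largely as a block from array to array. For each member the mean over the 12 arrays was subtracted, and the median deviation of the 80 members was then taken on each array. On chow it was 0.045, 0.060 and -0.055 in WT and 0.197, 0.235 and 0.102 in KO. On HFD it was -0.072, -0.328 and -0.178 in WT and -0.020, 0.016 and 0.026 in KO. The KO arrays on chow were therefore highest and the WT arrays on HFD lowest, with the other groups between them, and the ranges of the WT arrays on chow and the KO arrays on HFD overlapped.

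The group means of single genes followed the same pattern. KO on chow had the highest group mean for 75 of 80 members and WT on HFD the lowest for 66. KO on HFD lay above WT on chow for 32 members and below it for 47, with a median difference of -0.022. The full order from KO on chow through WT on chow and KO on HFD down to WT on HFD held for 42 members, among them all 4 genes of complex II. Replicates were least alike in WT on HFD, where the median SD over members was 0.132, against 0.090 in WT on chow, 0.096 in KO on chow and 0.061 in KO on HFD. Within WT on HFD, replicate 2 was lowest for 70 members and replicate 1 highest for 65. In both chow groups replicate 3 was most often the lowest, for 60 members in WT and 56 in KO.

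**Figure D1:**
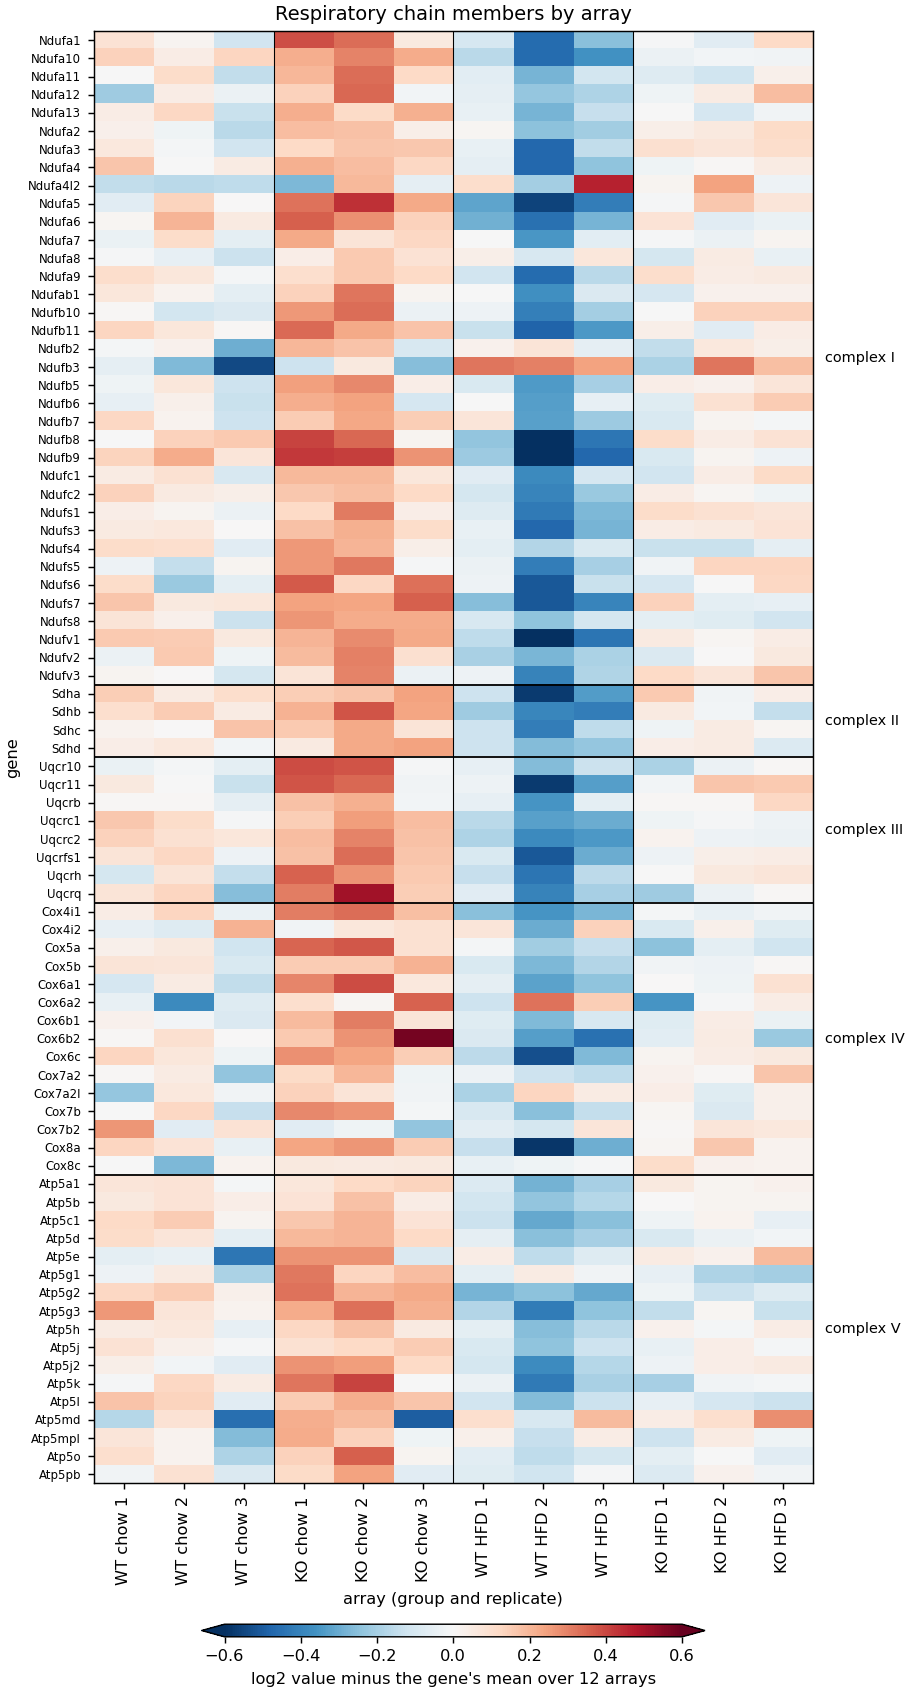
Heat map of the 80 respiratory chain genes (rows, grouped by complex) on the 12 arrays (columns, grouped by genotype and diet), coloured by the log2 level minus the gene's mean over the 12 arrays, with the colour scale ending at 0.6 either way. The 3 KO chow columns are mostly above the mean, and the column of WT on HFD replicate 2 is the lowest of the 12 for 62 of 80 genes.

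Feeding WT mice the high fat diet was followed by lower levels of 30 of the 80 members, a higher level of 1 and no passing change in 49. Subunits of all 5 complexes fell, by 1.14 to 1.53 times. Complex II was called in full, with 4 of 4 genes lower. Complex I had 13 of 36 lower, complex III 3 of 8, complex IV 3 of 15 and complex V 7 of 17. Of all genes tested in limma, 12.3% were lower and 11.8% higher at an adjusted p under 0.05. The median difference was -0.19 over the members and -0.03 over all genes, and 69 of 80 members were negative. The arrays of the groups did not overlap, with HFD lower, for 36 members, beside 21.6% of all genes. Members are not independent of each other on an array, so these counts carry no p of their own. The count of 31 calls was 19 without WT HFD replicate 2, 20 without WT chow replicate 1, 17 in a fit of only the groups compared and 52 with array weights.

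In complex I the 5 falls with the smallest p were in Ndufs7, Ndufa10, Ndufb9, Ndufv1 and Ndufa5. Ndufs7, a core subunit that carries the last iron-sulfur cluster before ubiquinone, read 10.71, 10.60 and 10.61 on the WT chow arrays and 10.29, 10.04 and 10.15 on the WT HFD arrays. The groups did not overlap, and the gene fell by 0.49 ± 0.08 (SE; adjusted p = 0.0028, limma). Ndufv1, the core subunit that binds NADH, read 10.90, 10.89 and 10.80 on chow and 10.59, 10.14 and 10.30 on HFD. All 3 HFD arrays were below all 3 chow arrays, a fall by 0.52 ± 0.10 (adjusted p = 0.00392). Ndufb9, an accessory subunit of the membrane arm, had the largest fall of any member, by 0.62 ± 0.11 (adjusted p = 0.00346) or 1.53-fold. Its 10.25, 10.34 and 10.19 on chow stood against 9.90, 9.38 and 9.65 on HFD, and the lowest of these was again replicate 2. The accessory subunits Ndufa10 and Ndufa5 fell by 0.43 ± 0.08 (adjusted p = 0.0032) and 0.45 ± 0.09 (adjusted p = 0.0046).

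Core and accessory subunits of complex I were both among those that fell, with 4 of the 6 core genes lower at a median difference of -0.28. Of the other 30 genes of the complex, 9 were lower, with a median of -0.17. The difference between core and accessory genes was not tested. Ndufb3, a small accessory subunit, went the other way. It read 8.45, 8.24 and 7.96 on WT chow and 8.83, 8.81 and 8.75 on WT HFD, a rise of 0.58 ± 0.15 (adjusted p = 0.0152) or 1.49-fold. The HFD arrays were all higher, while the chow arrays were spread widely, and without WT chow replicate 3 the rise was 0.45 and no longer passed (adjusted p = 0.0608).

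Complex II is also an enzyme of the citric acid cycle. Sdhb, its iron-sulfur subunit, read 9.95, 10.004 and 9.90 on WT chow and 9.64, 9.46 and 9.44 on WT HFD, a fall by 0.44 ± 0.08 (adjusted p = 0.00369). Sdha, the flavoprotein that oxidises succinate, read 12.28, 12.18 and 12.23 on chow and 12.00, 11.55 and 11.79 on HFD, a fall by 0.45 ± 0.10 (adjusted p = 0.00907). The membrane anchors Sdhc and Sdhd fell less, by 0.29 ± 0.09 (adjusted p = 0.0303) and 0.23 ± 0.07 (adjusted p = 0.039). The arrays of the diets did not overlap for any of the 4 genes.

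In complex III, Uqcrc2, a core protein of the matrix side, read 11.83, 11.78 and 11.76 on chow and 11.51, 11.31 and 11.34 on HFD, and fell by 0.40 ± 0.07 (adjusted p = 0.00268). Its partner Uqcrc1 fell by 0.35 ± 0.07 (adjusted p = 0.00487), and Uqcrfs1, the Rieske iron-sulfur protein, by 0.36 ± 0.10 (adjusted p = 0.0238). In complex IV, Cox4i1, the common form of the largest nuclear-encoded subunit, read 11.04, 11.12 and 10.96 on chow and 10.74, 10.64 and 10.72 on HFD, and fell by 0.34 ± 0.07 (adjusted p = 0.00532). Cox6c and Cox8a, small membrane subunits, fell by 0.37 ± 0.09 (adjusted p = 0.0126) and 0.40 ± 0.10 (adjusted p = 0.0185). No other gene of complexes III and IV passed.

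In complex V, Atp5g2, a gene for the c subunit that forms the rotating ring, had the smallest p of the 80 members on the row used. It read 10.86, 10.89 and 10.77 on chow and 10.46, 10.50 and 10.43 on HFD, a fall by 0.38 ± 0.06 (adjusted p = 0.00247). Here the WT HFD arrays were tight (SD 0.031, n = 3), and replicate 2 was the highest of them rather than the lowest. The other rows of Atp5g2 fell less, at -0.112 and -0.18. Atp5g3, another gene for the c subunit, fell by 0.40 ± 0.09 (adjusted p = 0.00848). The catalytic head took part as well. The genes of its alpha, beta and gamma subunits, Atp5a1, Atp5b and Atp5c1, fell by 0.24 ± 0.07 (adjusted p = 0.0238), 0.23 ± 0.06 (adjusted p = 0.018) and 0.32 ± 0.07 (adjusted p = 0.00705).

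Upstream sequences of 4 members are printed to set Ndufs7, Sdhb and Atp5g2, which had the smallest p of their complexes with HFD in WT and fell, beside Ndufb3, which rose. They are the 250 bases before the start of each gene, 5′ to 3′ on the gene's own strand, from the RefSeq table of mouse assembly GRCm38.p6. They lie at chr10:80249199-80249448 (plus strand) for Ndufs7, chr4:140961021-140961270 (plus strand) for Sdhb, chr15:102671048-102671297 (minus strand) for Atp5g2 and chr1:58586147-58586396 (plus strand) for Ndufb3. Capitals mark matches on either strand to GCGCATG, the core of the NRF1 motif, or to GGGCGG, the SP1 motif.
Ndufs7: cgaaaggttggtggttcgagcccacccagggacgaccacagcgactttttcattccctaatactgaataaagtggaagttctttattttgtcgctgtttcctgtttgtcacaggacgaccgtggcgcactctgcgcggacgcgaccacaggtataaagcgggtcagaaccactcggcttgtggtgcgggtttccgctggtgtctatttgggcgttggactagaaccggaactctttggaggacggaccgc
Sdhb: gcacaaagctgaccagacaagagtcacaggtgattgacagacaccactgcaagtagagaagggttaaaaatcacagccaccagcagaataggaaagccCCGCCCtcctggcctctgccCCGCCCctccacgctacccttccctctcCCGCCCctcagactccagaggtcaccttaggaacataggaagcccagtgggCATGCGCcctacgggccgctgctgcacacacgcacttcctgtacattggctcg
Atp5g2: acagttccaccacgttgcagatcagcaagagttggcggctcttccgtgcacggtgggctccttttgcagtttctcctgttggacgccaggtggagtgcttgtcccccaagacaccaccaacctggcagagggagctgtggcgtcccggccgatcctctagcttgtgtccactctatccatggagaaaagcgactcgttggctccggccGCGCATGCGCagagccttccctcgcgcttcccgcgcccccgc
Ndufb3: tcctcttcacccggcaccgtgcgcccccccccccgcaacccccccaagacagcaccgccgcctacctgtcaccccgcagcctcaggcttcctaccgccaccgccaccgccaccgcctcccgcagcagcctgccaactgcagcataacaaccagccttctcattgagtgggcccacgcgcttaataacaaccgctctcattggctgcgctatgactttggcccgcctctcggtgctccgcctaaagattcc

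Sdhb carried 1 NRF1 match and 3 SP1 matches in these bases, and Atp5g2 carried 2 NRF1 matches that overlap on opposite strands. Ndufs7 and Ndufb3, which moved in opposite directions, had no match to either motif. The table held a window of 300 bases (250 before and 50 after the start) for 65 of the 80 members and for 15613 genes in all. Searched on both strands, GCGCATG occurred in 13 of the 65 members (20.0%) and in 5.23% of all windows. CCGGAAG, the core bound by ETS factors such as GABP, occurred in 16 members (24.6%) and in 12.5% of all. AAGATGG, the YY1 core, occurred in 9 members (13.8%), 7 of them in complex I, and in 6.44% of all. AAGGTCA, a site bound by ERR receptors, occurred in 7 members (10.8%), 4 of them in complex V, and in 3.79% of all. GGGCGG was found in 28 members (43.1%) and in 49.9% of all. The only overlap among the printed matches is that in Atp5g2. The GC content had a median of 58.3% in members and 57.7% in all windows. Of the 13 members with an NRF1 match, 6 were lower on HFD in WT and 4 were higher in KO on HFD, beside 24 and 13 of all 65. A match is a description of the letters and not evidence of binding.

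On HFD, the KO arrays had higher levels than the WT arrays for 19 of the 80 members, lower levels for none, and no passing difference for 61. The difference was positive for 71 members, with a median of 0.20 against 0.02 over all genes. Complex I held 11 of the 19, out of 36 (median 0.25). Complex II held 2 of 4 (median 0.27), complex III 2 of 8 (0.26), complex IV 3 of 15 (0.15) and complex V 1 of 17 (0.15). Of all genes tested in limma, 6.65% were higher and 6.85% lower. The KO arrays were all above the WT arrays for 48 members, beside 17.4% of all genes.

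Ndufa5, an accessory subunit of the complex I matrix arm, had the smallest p. It read 8.36, 8.12 and 8.26 in WT and 8.67, 8.84 and 8.74 in KO, a difference of 0.50 ± 0.09 (adjusted p = 0.00701). Ndufb8, an accessory subunit of the membrane arm, had the largest difference at 0.52 ± 0.12 (adjusted p = 0.0168) or 1.43-fold. Its WT arrays were spread over 9.18, 8.78 and 8.99, and its KO arrays lay close together at 9.53, 9.46 and 9.51. Ndufs7 read 10.68, 10.48 and 10.50 in KO, all above its 3 WT values, a difference of 0.40 ± 0.08 (adjusted p = 0.0128). Ndufv1 was higher by 0.43 ± 0.10 (adjusted p = 0.0164) and Ndufa10 by 0.31 ± 0.08 (adjusted p = 0.0257). The 6 core genes of complex I had a median difference of 0.34, and 4 of them passed, Ndufs1 and Ndufs3 beside Ndufs7 and Ndufv1.

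In complex II, Sdha read 12.28, 12.11 and 12.17 in KO, above the highest WT array at 12.00, and was higher by 0.40 ± 0.10 (adjusted p = 0.0243). Sdhb was higher by 0.30 ± 0.08 (adjusted p = 0.0316), and its KO arrays at 9.90, 9.84 and 9.71 did not overlap the WT arrays. The anchors Sdhd and Sdhc did not pass, at 0.21 ± 0.07 (adjusted p = 0.0867) and 0.24 ± 0.09 (adjusted p = 0.0916), although their arrays did not overlap either. In complex III the paired core proteins passed together, Uqcrc2 at 0.29 ± 0.07 (adjusted p = 0.0206) and Uqcrc1 at 0.24 ± 0.07 (adjusted p = 0.0409).

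In complex IV, Cox4i1 read 10.98, 10.95 and 10.98 in KO against 10.74, 10.64 and 10.72 in WT, a difference of 0.27 ± 0.07 (adjusted p = 0.0258). Cox6c was higher by 0.36 ± 0.09 (adjusted p = 0.0259) and Cox8a by 0.40 ± 0.10 (adjusted p = 0.028). Atp5a1, for the alpha subunit, was the single gene of complex V that passed. It read 12.68, 12.64 and 12.65 in KO against 12.54, 12.34 and 12.43 in WT, a difference of 0.22 ± 0.07 (adjusted p = 0.0471). Atp5g2 narrowly missed the threshold at 0.20 ± 0.06 (adjusted p = 0.0647), with KO arrays at 10.71, 10.61 and 10.66 that were all above WT.

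**Figure D2:**
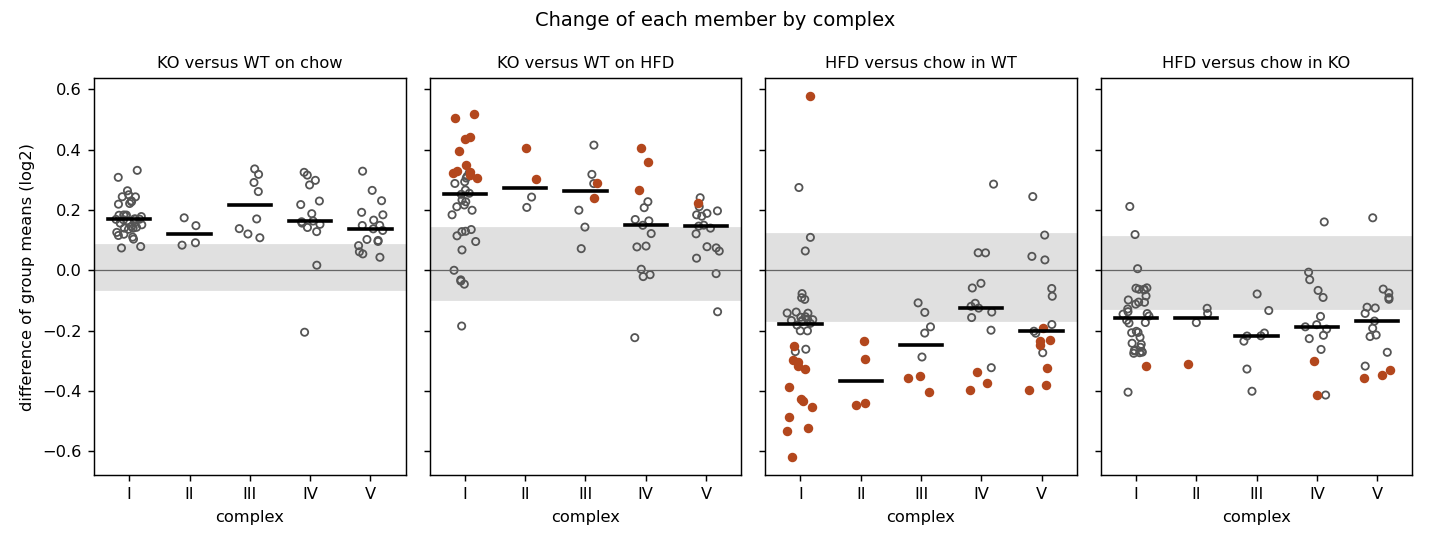
Fitted log2 difference (vertical axis) of each member in complexes I to V (horizontal axis), in 4 panels for the 4 comparisons of genotype or diet. A point is 1 gene, filled where it passed, a bar is the median of the complex, and the grey band is the interquartile range of all genes. In KO against WT on HFD the medians of complexes I to III are 0.25 to 0.27 and those of IV and V are 0.15.

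The count of 19 changed with the arrays used and with the form of the fit. It was 0 when only the 2 groups compared were fitted, and 48 with limma's array weights. Leaving out WT HFD replicate 1 gave 35 calls, leaving out its replicate 2 gave 2 (Ndufa5 and Ndufs7) and leaving out its replicate 3 gave 1 (Ndufa5); for KO HFD the counts were 1 (Ndufa5), 7 and 3 in the same order, while the median over members stayed between 0.15 and 0.25.

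**Figure D3:**
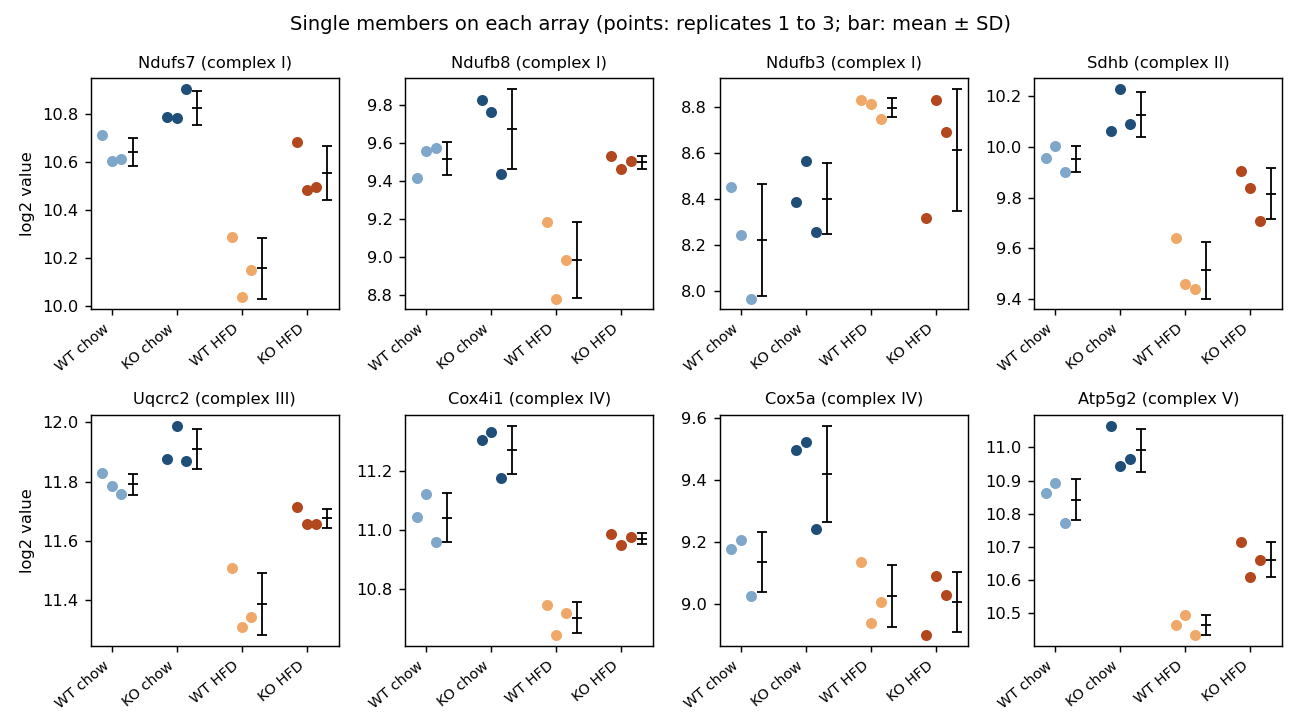
Log2 level of 8 members on each array, by group. Points are the 3 replicates and bars the mean with the SD. For Ndufs7, Sdhb, Uqcrc2, Cox4i1 and Atp5g2 the 3 WT HFD arrays lie below all other arrays, and Ndufb3 runs the other way, with its lowest values on chow.

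Of the 19 members higher in KO on HFD, 18 were also among the 30 that fell with HFD in WT. The comparisons share the 3 WT HFD arrays, so a low reading there enters both. The same overlap was not counted over all genes. Ndufs1, the exception, was called only against KO. Markers of other cells moved with these results. Of 12 macrophage markers, 11 were higher on HFD in WT and 10 were lower in KO than in WT on HFD. The difference between KO and WT on HFD was -1.89 ± 0.30 for Cd68 (adjusted p = 0.00596), -1.62 ± 0.33 for Adgre1 (adjusted p = 0.0112), -3.70 ± 0.46 for Itgax (adjusted p = 0.00377) and -3.77 ± 0.50 for Gpnmb (adjusted p = 0.00444). Of 12 adipocyte markers, 5 were lower and 1 higher on HFD in WT, and 5 were higher and 1 lower in KO on HFD. Beside both lists, 12.3% of all genes were lower and 11.8% higher on HFD in WT. In KO on HFD, 6.65% of all genes were higher and 6.85% lower. Plin1, the lipid droplet coat protein, differed by 0.52 ± 0.10 (adjusted p = 0.0091) and Lipe, hormone-sensitive lipase, by 0.49 ± 0.12 (adjusted p = 0.0258) between KO and WT on HFD. Adipoq, at 0.43 (adjusted p = 0.0652), and Cidec, at 0.07 (adjusted p = 0.73), did not pass.

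The 3 WT HFD arrays took the same order in these lists. The median deviation of the macrophage markers was 0.668, 2.250 and 1.587 on WT HFD replicates 1, 2 and 3, that of the adipocyte markers was -0.063, -0.517 and -0.133, and that of the members was -0.072, -0.328 and -0.178. The array with the highest macrophage markers was the lowest for adipocyte and respiratory chain genes. On the KO HFD arrays the macrophage markers lay between -0.414 and -0.215 and the adipocyte markers between 0.112 and 0.176. The part of the tissue's cell make-up in the members' differences was not tested.

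**Figure D4:**
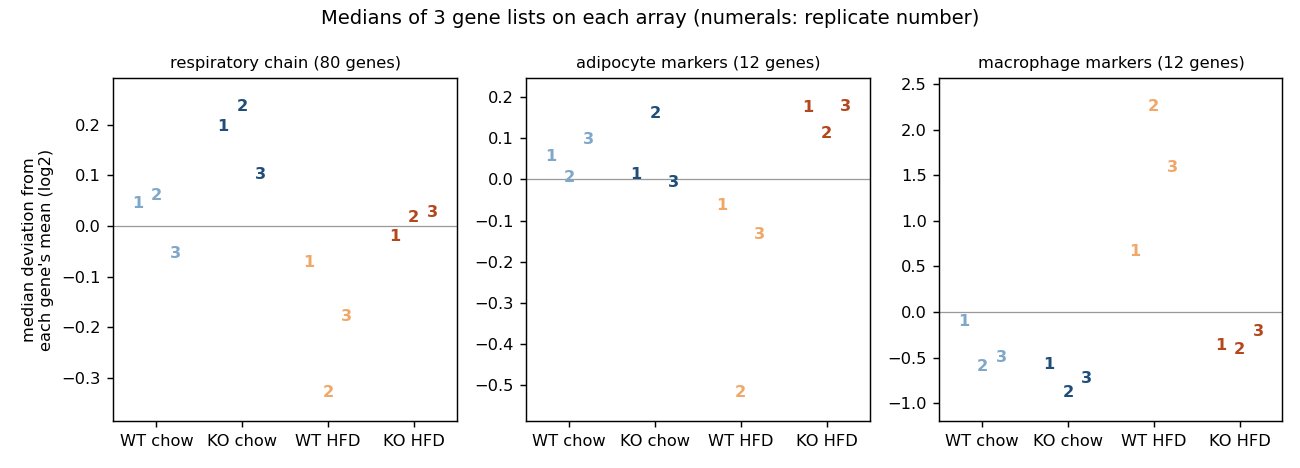
Median log2 deviation from each gene's 12-array mean, on each array, for the 80 members, the 12 adipocyte markers and the 12 macrophage markers; numerals give the replicate. The WT HFD arrays run from -0.072 down to -0.328 for the members while the macrophage markers run from 0.668 up to 2.250.

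On chow no single member passed between KO and WT (limma; lowest adjusted p = 0.68), as for all genes, of which 0% were higher and 0% lower. At an unadjusted p under 0.05 there were 20 members higher and 1 lower, beside 556 and 560 of all 19937 genes. The direction was nonetheless nearly uniform, since 79 of 80 members had a positive difference, against 53.6% of all genes, and the median was 0.16 against 0.01. The medians of the complexes ran from 0.12 in complex II and 0.14 in complex V through 0.16 in IV and 0.17 in I to 0.22 in complex III. The KO arrays were all above the WT arrays for 36 members and all below for none, beside 5.79% and 5.74% of all genes. The members share arrays, and KO chow replicates 2 and 1 held the highest of the 12 values for 41 and 25 of them, so this direction is a description of 6 arrays.

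The members named here are those with the smallest p in each complex, and no gene of complex II had an unadjusted p under 0.05. Ndufa5 read 8.60, 8.81 and 8.67 in WT and between 8.90 and 9.11 in KO, a difference of 0.31 ± 0.09 with no overlap (adjusted p = 0.68). Ndufs8, a core iron-sulfur subunit, differed by 0.24 ± 0.07 (adjusted p = 0.687). Uqcrh, the hinge protein of complex III, read 10.19, 10.37 and 10.15 in WT and 10.65, 10.56 and 10.45 in KO, a difference of 0.32 ± 0.10 (adjusted p = 0.743). Uqcrq, a small complex III subunit, had the largest positive difference at 0.34 ± 0.13 (adjusted p = 0.81), and Uqcr10, another small subunit, stood at 0.29 ± 0.11 (adjusted p = 0.805). Cox4i1 differed by 0.23 ± 0.07, Cox6a1 by 0.32 ± 0.10 and Atp5g1, another gene of the c subunit, by 0.26 ± 0.08, all at adjusted p = 0.743, and Atp5j2 by 0.23 ± 0.08 (adjusted p = 0.779). In complex II the differences were 0.17 for Sdhb, 0.15 for Sdhd, 0.09 for Sdhc and 0.08 for Sdha. Cox7b2, an isoform best known from testis, was the only member below 0, at -0.21 ± 0.09 (adjusted p = 0.891).

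The number of positive differences on chow was 78 or 79 in all 19 alternative fits, and none of those fits called a member. Beside this, the macrophage list had a median difference of -0.31 on chow and the adipocyte list of 0.00, with 0 of 12 genes called in each. The median deviation of the macrophage markers was -0.10, -0.60 and -0.50 on the WT chow arrays and -0.58, -0.88 and -0.73 on the KO chow arrays. The ranges overlap through WT replicate 2, and the median of the list was otherwise lower in KO, where the members were higher. Single macrophage markers differed by -1.48 to 0.54, with Trem2 and Cd14 higher in KO. The part of the markers in the chow differences was not tested.

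In KO mice the high fat diet was followed by lower levels of 7 members and higher levels of none, and 73 did not pass. Of all genes, 3.54% were lower and 2.8% higher. The direction was shared by most members, with 75 negative and a median of -0.17 (all genes -0.01), and medians of -0.16 in complexes I and II, -0.22 in III, -0.19 in IV and -0.17 in V. The KO HFD arrays were all below the KO chow arrays for 46 members, beside 13.7% of all genes. The macrophage list, with 0 of 12 called and a median of 0.43, and the adipocyte list, with 2 higher and a median of 0.10, stood beside medians of 1.98 and -0.31 in WT. The interaction called 0 of 12 genes in each list.

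The c subunit of the ATP synthase was called in full, since all 3 genes that encode it fell. Atp5g2 fell by 0.33 ± 0.06 (adjusted p = 0.0206), from 11.07, 10.94 and 10.97 to 10.71, 10.61 and 10.66. Atp5g1 read 8.67, 8.49 and 8.54 on chow and 8.31, 8.17 and 8.15 on HFD, a fall by 0.36 ± 0.08 (adjusted p = 0.0325), and Atp5g3 fell by 0.35 ± 0.09 (adjusted p = 0.0433). Cox5a, a matrix-side subunit of complex IV, read 9.50, 9.52 and 9.24 on chow and 8.90, 9.09 and 9.03 on HFD, a fall by 0.41 ± 0.09 (adjusted p = 0.0312). Cox4i1 fell by 0.30 ± 0.07 (adjusted p = 0.0304), Ndufs8 by 0.32 ± 0.07 (adjusted p = 0.0286) and Sdhb by 0.31 ± 0.08 (adjusted p = 0.0462). The arrays of the diets did not overlap for these genes.

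Of these 7 genes, 4 (Sdhb, Cox4i1, Atp5g2 and Atp5g3) also fell in WT, and Ndufs8, Cox5a and Atp5g1 did not pass there. Members just outside the threshold were Ndufb9 at -0.40 ± 0.11 (adjusted p = 0.0567), Uqcrc2 at -0.23 (adjusted p = 0.0681), Uqcrc1 at -0.22 (adjusted p = 0.0863) and Cox6b2, with the largest negative value, at -0.41 ± 0.12 (adjusted p = 0.0685). Ndufb3 had the largest positive one at 0.21 (adjusted p = 0.432). The other 3 genes of complex II stood at -0.13 (Sdha), -0.14 (Sdhc) and -0.17 (Sdhd). The count of 7 became 0, 3 and 2 (Cox5a and Uqcr10) when KO chow replicates 1, 2 and 3 were left out in turn, and 3, 0 and 0 for KO HFD. It was 11 when WT HFD replicate 1 was left out, 3 when its replicate 3 was, and 2 in a fit of only the groups compared.

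Whether the genotype difference depended on diet was tested directly by the interaction, KO minus WT on HFD less KO minus WT on chow. No member passed in limma, where 0% of all genes were higher and 0.00502% lower. At an unadjusted p under 0.05 there were 5 of the 80 members, 2 positive and 3 negative. Of all 19937 genes, 3496 were under that cutoff, 1799 positive and 1697 negative, so the members' share was below that of all genes. The median over members was 0.03, with 0.05 in complex I, 0.14 in II, 0.10 in III, -0.04 in IV and -0.01 in V. More members were called between genotypes on HFD than on chow, but no member's difference was shown to depend on diet. The intervals were wide: Ndufv1 stood at 0.32 ± 0.14 (95% interval 0.02 to 0.62, adjusted p = 0.263), Sdha at 0.32 ± 0.14 (adjusted p = 0.275) and Ndufb8, the largest, at 0.36 ± 0.17 (adjusted p = 0.294).

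On the negative side, Atp5g1 had the smallest p at -0.40 ± 0.12 (95% interval -0.66 to -0.15, adjusted p = 0.126). Its difference was 0.26 on chow and -0.14 on HFD. On the other row of the gene these were 0.134 and 0.064, so the change of sign was not shared. Cox6a2, the form of its subunit known from heart and muscle, was lowest at -0.55 ± 0.21 (95% interval -1.01 to -0.08, adjusted p = 0.217), and Cox5a stood at -0.30 ± 0.13 (adjusted p = 0.268). Uqcrc2 at 0.17 (adjusted p = 0.416), Uqcr10 at -0.22 (adjusted p = 0.515) and Atp5a1 at 0.16 (adjusted p = 0.418) had the smallest p in complexes III and V after these. With array weights, or without WT HFD replicate 1, 2 members passed.

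Of 10 isoform genes, which include forms restricted to some tissues or conditions, only those of the c subunit were called in any comparison. Cox4i2, the form of subunit 4 known from lung and low oxygen, differed between KO and WT on HFD by -0.01 and with HFD in WT by -0.06, where Cox4i1 passed in both. Cox6a2 read 6.23, 5.90 and 6.20 on WT chow and 6.15, 6.60 and 6.43 on WT HFD, a difference of 0.29 ± 0.15 (adjusted p = 0.203). Its difference between KO and WT on HFD, at -0.22 ± 0.15 (adjusted p = 0.396), was the most negative of the 80. Ndufa4l2, a relative of Ndufa4 known to be induced by low oxygen, stood at 0.27 ± 0.16 with HFD in WT (adjusted p = 0.249), while Ndufa4 fell by 0.33 ± 0.10 (adjusted p = 0.0283). Cox7a2l, which links complexes III and IV in supercomplexes, stood at 0.00 between KO and WT on HFD (95% interval -0.22 to 0.22).

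Among the isoforms named for testis, Cox6b2 stood at -0.32 ± 0.12 with HFD in WT (adjusted p = 0.0788), which missed the threshold, and stood at 0.21 between KO and WT on HFD (adjusted p = 0.322). Cox7b2 and Cox8c both stood at 0.08 in that comparison, and had mean levels over the 12 arrays below the median row of 5.85, the only members of the 80 to do so. The 3 genes of the c subunit encode the same mature protein and differ in their import sequences. On the rows used they were not alike with HFD in WT, where Atp5g2 and Atp5g3 fell and Atp5g1 stood at 0.05 (95% interval -0.14 to 0.23, adjusted p = 0.753). This contrast depended on the row, since the other row of Atp5g1 stood at -0.119 and the other rows of Atp5g2 at -0.112 and -0.18. Cox8b and Cox7a1 were left out of the group as isoforms of brown fat and muscle. Between KO and WT on HFD they stood at -0.33 (adjusted p = 0.442) and -0.29 (adjusted p = 0.443), and neither passed. On chow both were positive, as the members were, at 0.91 ± 0.24 (adjusted p = 0.664) and 0.28 ± 0.21 (adjusted p = 0.96), which did not pass either. Cox8b read 8.45, 8.43 and 7.74 on KO chow against 6.99, 7.66 and 7.09 on KO HFD, a fall by 0.96 ± 0.24 (adjusted p = 0.0388).

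Genes that build, feed or regulate the chain were read from lists chosen for their roles. Of 42 measured assembly factors, 6 were higher in KO on HFD and 0 lower, beside 6.65% and 6.85% of all genes. With HFD in WT 7 were lower and 3 higher, beside 12.3% and 11.8% of all genes. Ecsit and Ndufaf7, both needed to assemble complex I, were higher in KO on HFD by 0.58 ± 0.12 (adjusted p = 0.0121) and 0.45 ± 0.09 (adjusted p = 0.00923). Ecsit read 9.01, 9.04 and 9.02 in KO against 8.73, 8.13 and 8.45 in WT. Surf1, an assembly factor of complex IV, was higher by 0.35 (adjusted p = 0.0226) and Uqcc3, of complex III, by 0.38 (adjusted p = 0.0288). The median of the list was 0.14, below the 0.20 of the subunits, and that gap was not tested.

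Of 13 measured genes for cytochromes c, electron transfer flavoprotein and ubiquinone synthesis, 3 were higher in KO on HFD, 6 were lower with HFD in WT and 2 with HFD in KO. The shares of all genes were 6.65%, 12.3% and 3.54% in the same order. Cyc1, the haem-bearing cytochrome c1 of complex III that the symbol rule did not take in, read 10.95, 11.005 and 10.95 in KO on HFD against 10.74, 10.49 and 10.59 in WT, higher by 0.36 ± 0.09 (adjusted p = 0.0224). It fell by 0.39 ± 0.09 with HFD in WT (adjusted p = 0.00985). Coq4, for ubiquinone synthesis, was higher in KO on HFD by 0.35 (adjusted p = 0.0124) and Etfa, which carries electrons from fatty acid oxidation, by 0.32 (adjusted p = 0.0196). Coq6 stood at 0.32 (adjusted p = 0.0513).

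Of 16 transcriptional and mitochondrial DNA regulators, 2 were higher in KO on HFD, Twnk, the mitochondrial helicase, by 0.35 (adjusted p = 0.0181) and Tfb2m, a mitochondrial transcription factor, by 0.43 (adjusted p = 0.0432). Ppargc1a, the coactivator PGC-1alpha, read 6.56, 7.11 and 6.53 on WT chow and 5.82, 5.64 and 5.57 on WT HFD, and fell by 1.06 ± 0.18 (adjusted p = 0.00289). It read 6.63, 5.90 and 6.31 on KO HFD, all above WT HFD, yet the difference of 0.60 ± 0.18 missed the threshold (adjusted p = 0.0533), as did that of Ppara, at 0.46 (adjusted p = 0.0899). With HFD in WT, 5 regulators were lower and 2 higher. The shares of all genes were 6.65% higher in KO on HFD, and 12.3% lower and 11.8% higher with HFD in WT, so a count of 2 in 16 genes is near the background.

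Of 16 measured general mitochondrial genes, 2 were higher and 1 lower in KO on HFD, near the 6.65% and 6.85% of all genes, with a median of 0.08. Slc25a4, the ADP/ATP carrier of heart and muscle, was higher by 0.27 (adjusted p = 0.036) and the import motor subunit Timm44 by 0.25 (adjusted p = 0.0249), while Slc25a5, another ADP/ATP carrier, was lower, at -0.28 ± 0.07 (adjusted p = 0.0196). Hspa9, a matrix chaperone, stood at 0.18 (adjusted p = 0.0713). Of the subunits encoded in mitochondrial DNA, only ND3 and COX2 had named rows. ND3 stood at 0.17 ± 0.07 (adjusted p = 0.15) and COX2 at 0.11 ± 0.08 (adjusted p = 0.439) between KO and WT on HFD, and neither passed in any comparison. On chow, 0 genes of these lists were called between KO and WT, with medians of 0.08 for the assembly factors, 0.10 for the electron carriers, 0.02 for the regulators and 0.06 for the general mitochondrial genes.

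Markers of brown or beige fat and of skeletal muscle, other tissues rich in mitochondria, gave few calls between KO and WT on HFD. Of 6 brown or beige markers, 0 were higher and 1, Dio2, lower in KO on HFD (-0.72 ± 0.13, adjusted p = 0.00748), and of 7 muscle markers 0 were called. With HFD in WT, 1 marker of each list was lower. With HFD in KO, 2 brown or beige markers (Cidea and Cox8b) and 1 muscle marker were lower, beside 3.54% of all genes. Cidea stood at -1.02 ± 0.18 with HFD in WT (adjusted p = 0.00302) and at -0.86 ± 0.18 in KO (adjusted p = 0.025). Of all genes, 6.85% were lower in KO on HFD and 12.3% with HFD in WT. In all, 45 of the 80 members were called in no comparison. The matching share over all genes was not counted, so this number has no background beside it.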

How the data were processed

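Total RNA of 12 samples was amplified and labelled with biotin for Affymetrix whole-transcript arrays, per the labels' protocols. The authors deposited 1 table of 34760 probe-set rows with log2 values from 2.10 to 14.2 (their range points to base 2). The submitters' processing notes name affy; the sources used here do not give how arrays were background-corrected, summarized and normalized. Without detection calls, dim rows have no known background.

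Names came from the platform annotation, in which 21640 rows have 1 symbol, 1321 have several and 11799 are unnamed here. The row with the highest mean over the 12 arrays stood for a gene, and 17 of the 80 members had several rows. The Entrez identifiers and symbols of all 80 members matched RefSeq GRCm38.p6. All 12 arrays entered 1 model of 4 group means in limma 3.58.1 (R 4.3.3; lmFit, contrasts, eBayes; 8 residual degrees of freedom). Tests were two-sided, with Benjamini-Hochberg adjustment over 19937 genes and a threshold of 0.05; ± in differences is the SE. The script was tested on simulated data.

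The members and lists were chosen with earlier results of these data known. Named were, per complex, up to 5 passing members with the smallest p in each direction (KO against WT on HFD and HFD against chow in WT) or the 2 with the smallest p (other comparisons, or where none passed). Also named were the Sdh genes, isoforms, the largest rise and fall, and up to 4 genes of each other list. Ndufs1, Ndufs3, Ndufa4, Cyc1 in other comparisons, Dio2 and Cidea were named after their values were seen, as were the per-library gene names beside counts. Alternatives were quantile normalization, a filter on low rows, only the groups compared, array weights, trended robust variances, the mean of a gene's rows, a replicate block and each array left out.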

Additional observations from a re-analysis of the deposited data

How the results depend on the processing

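With 3 arrays per group a call can rest on 1 array, and without detection calls it is not known which rows are near background. On chow, 0 members were called between KO and WT under every alternative fit. The count of 19 members for KO against WT on HFD was 0 with only the groups compared (fewer samples), 48 with array weights, and 1 to 35 with 1 array left out. The count of 31 for HFD against chow in WT was 17 with only the groups compared, 52 with array weights, and 19 to 40 with 1 array left out, the fewest without WT HFD replicate 2 (19) and WT chow replicate 1 (20). The count of 7 for HFD against chow in KO was 11 after quantile normalization, 12 with the filter on low rows, 2 with only the groups compared, 15 with array weights, 11 with trended robust variances, and 0 to 11 with 1 array left out. The interaction gave 2 with array weights and 0 to 2 with 1 array left out. The array weights fit gave a convergence warning. With the replicate number as a block the counts were 0, 15, 26, 4 and 0. The labels do not say whether the numbers pair the samples. Of 18 correlations between same-numbered arrays, 4 were over 0.1 (range -0.408 to 0.379), and those between other arrays ranged from -0.482 to 0.433. With 3 arrays per group these values cannot decide whether the numbers mark a pairing. The cause of these shifts was not tested.

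The medians by complex kept their size except when 1 array was left out. Complex V on chow ranged from 0.0637 to 0.162, lowest without WT chow replicate 3. With HFD in WT, complex II ranged from -0.43 to -0.27 and complex III from -0.34 to -0.14, and the interaction in complex III ranged from -0.0077 to 0.148, each nearest 0 without WT HFD replicate 2.

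Signs that turned were of differences that had not passed. Most were small, but those of Ndufa4l2 stood at 0.11 on chow and -0.16 in the interaction. Between KO and WT on HFD, Cox7a2l was -1e-04 after quantile normalization, -0.043 with array weights and -0.0063 with the mean of rows, and Cox7b2 was -0.0141 with array weights. Cox8c with HFD in KO was 0.0426 after quantile normalization. With array weights, Cox4i2 with HFD in WT was 0.12 and the interaction of Cox6b2 0.023. With the mean of rows, Atp5g1 with HFD in WT was -0.0366 and the interaction of Atp5g2 -0.10. With 1 array left out, the ranges that crossed 0 on chow were -0.0356 to 0.107 for Cox4i2 and -0.0091 to 0.223 for Ndufa4l2. Those for KO against WT on HFD were -0.09 to 0.0699 for Cox7a2l, -0.149 to 0.0684 for Cox4i2 and -0.208 to 0.125 for Ndufa4l2. Those for HFD in WT were -0.142 to 0.0758 for Cox4i2, -0.022 to 0.101 for Atp5g1, -0.0267 to 0.151 for Cox7a2l and -0.0346 to 0.111 for Cox8c, and for HFD in KO -0.0358 to 0.009 for Cox8c. Those of the interaction were -0.178 to 0.0297 for Cox6b2, -0.166 to 0.0517 for Cox4i2, -0.0196 to 0.103 for Atp5g3, -0.117 to 0.0283 for Cox8c, 0 to 0.103 for Sdhd and -0.318 to 0.0154 for Ndufa4l2. Over the values of named genes, the alternatives other than leaving out an array kept direction and side of the threshold in 726, lost the call in 34, gained it in 20 and turned the sign in 9. With 1 array left out these numbers were 1234, 130, 9 and 31.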

Other observations

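Rows not used for a gene can be set beside the row that was. The 17 members with several rows had 24 others, of which 22 had the sign of the row used for KO against WT on chow, 21 for KO against WT on HFD, 17 for HFD against chow in WT and 22 for HFD against chow in KO. The median gap between such rows was 0.042, 0.041, 0.091 and 0.087 in these comparisons. The largest gaps were 0.336 for Atp5g2 and 0.280 for Atp5l in the comparisons of genotype, and 0.438 and 0.496 for Ndufab1 in those of diet. With HFD in WT, the row used for Atp5l stood at -0.247 and its other rows at -0.297, 0.048, 0.085 and -0.026.

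A further 6 rows carry a subunit's symbol together with that of a near copy and were left out of the 80 genes, 3 for Cox7c with Gm12338, 2 for Ndufb4 with Ndufb4b and 1 for Ndufs5 with its pseudogene Ndufs5-ps.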
